A study of Mus musculus with 2 samples.

Results

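The genes described here are the 84 cytosolic ribosomal protein genes among the 31053 genes of the deposited count matrices. They were chosen by symbol alone: names of the form Rps or Rpl with a number and an optional paralogue letter, with Rplp0, Rplp1, Rplp2 and Rpsa added and with kinase genes of the Rps6k family and processed copies marked -ps left out. Of these, 32 encode proteins of the small subunit and 52 proteins of the large subunit. The expression values were counts of unique molecular identifiers (UMIs, 1 per captured mRNA molecule) from droplet-based 3′ single-cell RNA sequencing of small subcutaneous tumours grown from B16F10, a mouse melanoma line.

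The study asked what ATF4, a transcription factor of the integrated stress response, does in the host cells of a tumour. The WT library came from Atf4wt/wt hosts and the KO library from Atf4D/D hosts, on the C57BL/6 background, at 11 weeks of age. Hosts of both genotypes carried Rosa26::CreERT2, a tamoxifen-activated Cre expressed in most tissues, and both received tamoxifen by gavage; only the KO hosts carried floxed Atf4 alleles. The injected melanoma cells were not edited and kept Atf4 in both libraries. Each library pooled cells of 2 tumours, so there was 1 library per genotype and no replicate. No test between genotypes was possible, and all intervals below are exact 95% intervals that cover the counting error of UMIs only.

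The WT library held 6304 barcodes and 38417113 UMIs and the KO library 5474 barcodes and 38290024 UMIs. After filtering, 3861 and 3557 cells remained, with a median of 3920 and 6279 UMIs. Both libraries are labelled as pools of male and female animals, but 4 Y-linked genes had 1 UMI in all barcodes of the WT library against 335 in the KO library, while Xist, the RNA of the inactive X chromosome, had 3740 and 656. Host values are therefore also given for Xist-positive cells, meaning those in which Xist but none of the Y-linked genes was detected. Atf4, the deleted gene, went from 177 CPM (UMIs of a gene scaled to a common total) in WT to 42.9 CPM in KO macrophage-like cells, and from 257 to 37.4 CPM in CAF-like cells (cancer-associated fibroblasts). In melanoma-like cells it stood at 227 and 202. The loxP sites flank the last exons of Atf4, where 3′ reads fall, so the reads bear on the deleted sequence. The classes were gated on marker genes, none of them ribosomal, and all 11 melanoma, 11 macrophage and 12 CAF markers had UMIs in their class in both libraries.

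Ribosomal proteins assemble with ribosomal RNA into the 40S and 60S subunits that translate mRNA. Their mRNAs are among the most abundant of a growing cell and carry a stretch of pyrimidines at the cap (the TOP motif) through which mTORC1 and LARP1 control their translation and stability. Transcription of these genes is widely coordinated, and MYC raises it together with ribosome biogenesis. ATF4 acts on the same economy from the side of amino acid supply, and its target Eif4ebp1 encodes a repressor of cap-dependent translation.

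All 84 genes had at least 1 UMI in the kept cells, and 73 exceeded 1000 CPM in both libraries. The median gene stood at 2317 CPM in the WT and 2485 CPM in the KO library. The 10 genes with the most UMIs, among them Rpl32, Rplp1, Rpl13, Rps27a, Rpl23, Rps3a1, Rpsa, Rps2 and Rpl19, together held 22.7% and 23.2% of all ribosomal protein UMIs. Rpl32, a large subunit gene, led with 6657 and 7912 CPM in the WT and KO libraries. Rplp1, which encodes an acidic protein of the ribosomal stalk, followed at 5939 and 6915 CPM. The fewest UMIs fell on tissue-restricted paralogues: Rpl10l, a testis copy of Rpl10, had 1 UMI in all, Rpl3l, a striated muscle copy of Rpl3, had 8, and Rpl39l, known from male germ cells, had 67. Rpl7l1 with 5749 and Rpl36al with 14163 UMIs came next. UMI levels between genes also depend on how many reads could be assigned to 1 copy, since many of these genes have near-identical pseudogenes, so comparisons below are of 1 gene between classes or libraries. The 9 -ps features of the matrices amounted to 0.0461% and 0.0437% of the ribosomal protein UMIs. Fau, which encodes a ribosomal protein fused to a ubiquitin-like sequence and does not follow the naming rule, stood at 2196 and 2531 CPM in the WT and KO libraries.

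The share of a cell's mRNA that encodes ribosomal proteins differed more between cell classes than between genotypes. It was lowest in macrophage-like cells, at 15.04% (interval 14.99 to 15.09) of all UMIs in 846 WT cells and 15.23% (15.18 to 15.29) in 682 KO cells. CAF-like cells held 18.7% (18.6 to 18.8) in 183 WT and 21.5% (21.4 to 21.6) in 199 KO cells. Monocyte-like cells were at 19.6% (19.5 to 19.8) in 266 WT and 19.5% (19.4 to 19.7) in 173 KO cells. Melanoma-like cells were at 21.2% in 1748 WT and 22.9% in 1762 KO cells, with intervals narrower than 0.04 percentage points. Endothelial-like cells had 21.1% (20.9 to 21.2) in 70 WT and 18.9% (18.7 to 19.1) in 26 KO cells. The highest shares were in T/NK-like cells, at 31.7% in 45 WT and 35.0% in 14 KO cells, and dendritic-like cells stood at 22.9% in both, from 16 and 7 cells; these 2 classes were too small to compare. The order macrophage below CAF below melanoma held in both libraries, whereas the place of monocyte-like and endothelial-like cells differed. Within a class cells were spread widely, with an SD over cells of 2.72 percentage points in WT and 3.98 in KO melanoma-like cells, 3.19 and 3.33 in macrophage-like cells, and 4.07 and 5.22 in CAF-like cells.

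**Figure D1:**
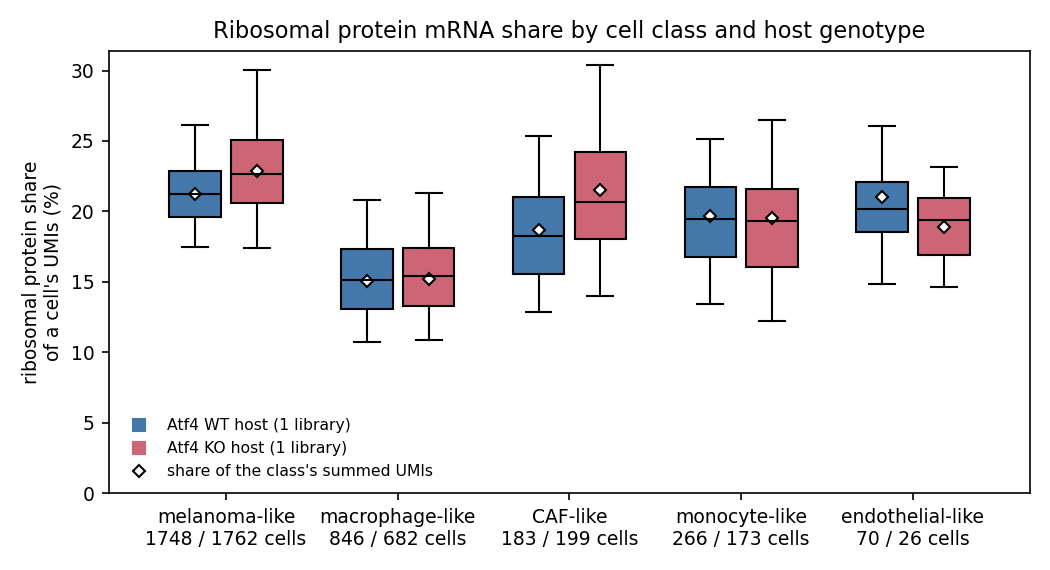
Share of each cell's UMIs that falls on the 84 ribosomal protein genes (y axis, %), by gated cell class, with the WT library in blue and the KO library in red. Boxes are quartiles with the median over cells, whiskers reach the outermost cells within the 5th and 95th percentiles, and diamonds mark the share of the summed UMIs; macrophage-like cells are lowest in both libraries, and the KO box is higher in melanoma-like and CAF-like cells.

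Against the WT library, the KO library had a higher ribosomal protein share in CAF-like and melanoma-like cells and a lower one in endothelial-like cells. In CAF-like cells the log2 KO/WT ratio was 0.20 (0.19 to 0.21), which is 1.15-fold or 2.80 percentage points, and 74.4% of KO cells lay above the WT median. In melanoma-like cells it was 0.11 (0.11 to 0.11), or 1.08-fold, with 67.7% of KO cells above the WT median. In macrophage-like cells the ratio was 0.018 (0.011 to 0.026), in monocyte-like cells -0.0077 (-0.026 to 0.011), and in endothelial-like cells -0.16 (-0.18 to -0.13), or -0.10 as the mean of per-cell shares. The melanoma-like cells, which carry the same Atf4 gene in both libraries, differed by more than macrophage-like cells. The cause was not tested, and a difference between libraries cannot be told apart from one between host genotypes. Ribosomes need both subunits in equal number. The mRNAs of both were higher in KO CAF-like and melanoma-like cells and lower in KO endothelial-like cells. In macrophage-like cells they diverged, and the interval of the large subunit ratio held 0 (-0.014 to 0.0055). The small subunit ratio was 0.24 in CAF-like, 0.12 in melanoma-like and 0.046 in macrophage-like cells, and the large subunit ratio was 0.17, 0.097 and -0.0044. Small subunit genes supplied between 43.7% and 46.3% of the ribosomal protein UMIs in the melanoma-like, macrophage-like, CAF-like, monocyte-like and endothelial-like cells of either library. Across single cells the shares of the small and large subunit rose and fell together, with a Pearson r of 0.90 and 0.94 over the WT and KO melanoma-like cells, 0.86 and 0.85 over macrophage-like cells and 0.91 and 0.95 over CAF-like cells; both shares have the same denominator. Melanoma markers were also found in host droplets, and free RNA estimated from them was 4.88% and 6.88% of the UMIs of WT and KO CAF-like cells, 7.05% and 7.52% in macrophage-like cells and 12.38% and 15.04% in monocyte-like cells. With it subtracted, the CAF shares were 18.6% and 21.5%, and the macrophage ratio went from 0.018 to 0.0027.

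The host values were recomputed in Xist-positive cells. CAF-like cells then stood at 18.6% in 151 WT and 21.2% in 55 KO cells, a log2 ratio of 0.19. Macrophage-like cells stood at 14.9% in 628 WT and 16.5% in 80 KO cells, a log2 ratio of 0.15, where all macrophage-like cells gave 0.018. Endothelial-like cells gave -0.065 from 55 WT and 10 KO cells, where all cells gave -0.16, and monocyte-like cells -0.12 from 119 and 18 cells, where all gave -0.0077. Within the KO library alone, the 110 macrophage-like cells in which a Y-linked gene but not Xist was detected were at 14.6% (14.4 to 14.7), below the 80 Xist cells at 16.5% (16.4 to 16.7). For CAF-like cells the corresponding KO values were 20.7% in 45 and 21.2% in 55 cells. Whether animals of different sex or of different tumours lie behind the gap among KO macrophage-like cells cannot be told apart.

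The CAF and melanoma differences were present at every depth of the cells. The KO share was above the WT share in each of 5 depth bins of melanoma-like cells, from 19.4% against 20.8% in cells of 500 to 2000 UMIs to 20.9% against 22.8% in cells of 20000 UMIs or more. The widest gap was in cells of 2000 to 5000 UMIs, at 22.8% and 26.3% in 75 cells of each library. CAF-like cells were higher in KO in each of 4 bins, for example 19.0% and 22.3% between 3000 and 6000 UMIs in 95 and 93 cells. In macrophage-like cells the shares of the libraries lay within 0.2 percentage points of each other in the 3 bins below 6000 UMIs, and the share declined with depth from 16.6% to 14.3% in WT and from 16.5% to 14.4% in KO.

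**Figure D2:**
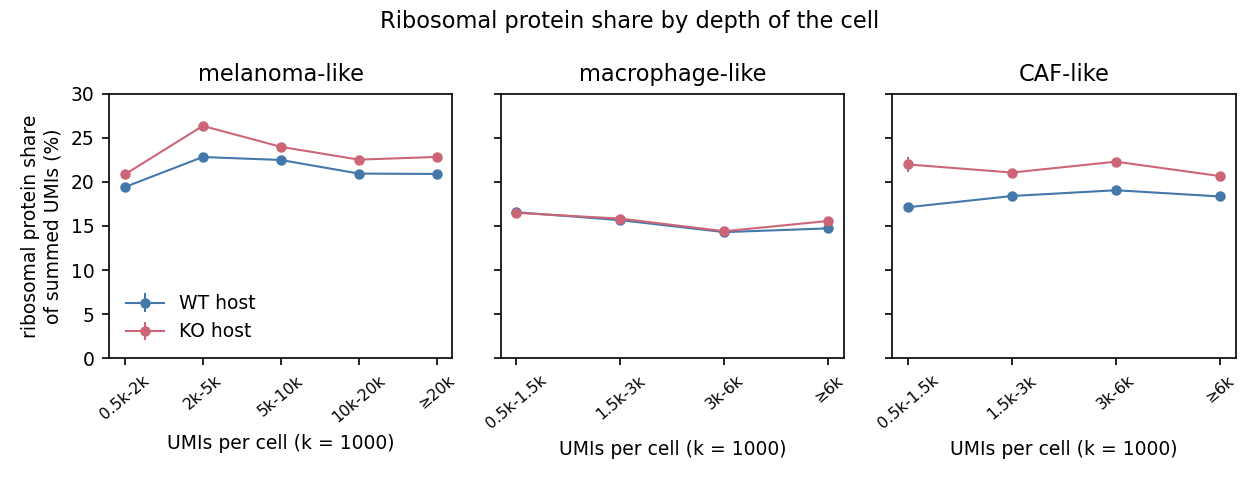
Ribosomal protein share of the summed UMIs (y axis, %) in bins of UMIs per cell (x axis), for 3 classes, with WT in blue and KO in red and exact 95% counting intervals as bars, mostly smaller than the points. The KO line runs above the WT line in every bin of melanoma-like and CAF-like cells, and the lines lie on each other in macrophage-like cells below 6000 UMIs.

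The share also followed the mitochondrial share and the cell cycle genes of the melanoma-like cells, and it did so in both libraries. Cells with 3 to 4.5% mitochondrial UMIs held 22.4% ribosomal protein UMIs in WT and 23.3% in KO, and those with 6 to 7.5% held 21.0% and 22.2%. Barcodes removed by the filter at 7.5% held less: those with 15 to 30% mitochondrial UMIs had 16.2% and 17.2%, and those above 30% had 9.03% and 10.3%. Mitochondrial UMIs are part of the denominator, so a higher mitochondrial share by itself lowers the ribosomal protein share. The share without mitochondrial UMIs was not computed for these bins. At the other end, melanoma-like cells under 1.5% mitochondrial UMIs numbered 10 in WT and 73 in KO and held 28.5% and 29.4%. The median mitochondrial share of melanoma-like cells was 6.06% in WT and 5.42% in KO, and KO exceeded WT in each of the 8 mitochondrial bins. Among melanoma-like cells of 8000 to 16000 UMIs, those with at least 6 of 12 G2/M genes detected held 20.8% in 765 WT and 21.8% in 597 KO cells. Those with at most 1 of these genes held 23.5% in 134 WT and 25.3% in 222 KO cells, at a median of 9724 and 10115.5 UMIs against 12624 and 12500 in the cells rich in G2/M genes. The KO share was higher within both sets. In CAF-like cells the 38 WT cells with an Mki67 UMI, a gene of proliferating cells, held 17.3% against 19.3% in the 145 without one, while in KO 21 and 178 cells held 21.3% and 21.5%.

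Fibroblast subsets were compared by single genes, chosen after the data were seen. CAF-like cells with a UMI of Lrrc15, a marker of activated myofibroblast-like CAFs, held 17.4% in 56 WT and 21.3% in 37 KO cells. Those without it held 19.4% in 127 WT and 21.6% in 162 KO cells. Those with a UMI of Pi16, a marker of adventitial fibroblasts, held 16.7% in 28 WT and 20.1% in 16 KO cells. KO values lay above WT values in the Lrrc15 and Pi16 subsets. The cells with a UMI of Rgs5, a pericyte marker, went the other way, at 20.3% in WT and 14.7% in KO, from 3 cells of each library. CAF markers themselves were lower in KO, at 356 against 504 UMIs per 10000, and their part in the ribosomal protein share was not tested.

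Gene by gene, the ribosomal protein genes were called by a threshold, a log2 ratio of 0.32 in either direction for genes with at least 200 UMIs in a class. In melanoma-like cells 4 of 81 measured members were higher and 4 lower in KO, where 13.2% of all 9049 measured genes were higher and 10.5% lower. In macrophage-like cells 2 of 81 were higher and 7 lower, against 12% and 13.3% of 2768 genes. In Xist-positive macrophage-like cells 13 of 80 were higher and 4 lower, and 62 lay above 0. The percentage of all genes called there was not computed. The median there was 0.13 over members and -0.041 over all 1461 measured genes. In CAF-like cells 19 of 80 were higher and 3 lower, against 19.5% and 21.5% of 1169 genes. The percentage of members called higher in CAF-like cells, 23.8%, was thus near that of all genes, and their percentage called lower, 3.75%, was below it. The median log2 KO/WT of the members was 0.12 in melanoma-like, 0.0077 in macrophage-like and 0.20 in CAF-like cells, beside medians over all measured genes of 0.0097, -0.021 and 0.00057. In CAF-like cells 64 of 80 members lay above 0, in melanoma-like cells 59 of 81, and in macrophage-like cells 41 of 81. Over all measured genes these counts were 586 of 1169, 4658 of 9049 and 1300 of 2768.

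In CAF-like cells the members highest in KO were led by small subunit genes. Rps27l, a paralogue of Rps27 known as a p53 target, went from 596 CPM in WT to 883 CPM in KO, a log2 ratio of 0.57 (0.39 to 0.74). Rps19, the gene most often mutated in Diamond-Blackfan anaemia, went from 2731 to 4044 CPM, also 0.57 (0.49 to 0.65). Rps12 went from 3471 to 5043 CPM (0.54), and Rps2, whose product lies near the mRNA entry site, from 3722 to 5371 CPM (0.53). Rpl12, which encodes a protein at the base of the stalk, went from 2536 to 3667 CPM (0.53, 0.45 to 0.62). The stalk genes themselves were all past the threshold in CAF-like cells, with Rplp1 at 0.44, Rplp2 at 0.38 and Rplp0 at 0.34. At the opposite end, Rpl22l1, the paralogue of Rpl22, went from 871 CPM in WT to 529 CPM in KO CAF-like cells, a log2 ratio of -0.72 (-0.90 to -0.54). Rpl39 and Rps21 were lower in KO without reaching the threshold, at -0.30 and -0.27.

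In melanoma-like cells the members higher in KO included Rpl29 at 1183 and 1609 CPM (0.44), Rpl12 at 3340 and 4474 CPM (0.42) and Rps18, a protein of the 40S head, at 3412 and 4303 CPM (0.33). Rps14 was at 0.31, just inside the threshold. The lowest were Rpl38, known for its part in translating Hox mRNAs in the embryo, at 1820 and 1319 CPM (-0.46, -0.49 to -0.44), Rpl35 at 1199 and 908.9 CPM (-0.40), Rps29 at 3136 and 2436 CPM (-0.36) and Rps27 at 1683 and 1307 CPM (-0.36). Rpl37a, at -0.28, did not reach the threshold. In macrophage-like cells Rpl38 was again lowest, at 1589 and 1108 CPM (-0.52, -0.60 to -0.44), followed by Rpl35 at -0.46 and Rpl39, whose product lines the exit tunnel, at -0.44. The highest there were Rpl29 at 820 and 1057 CPM (0.37) and Rps12 at 2534 and 3194 CPM (0.33), while Rpl36al and Rplp1 reached 0.27 and 0.25.

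**Figure D3:**
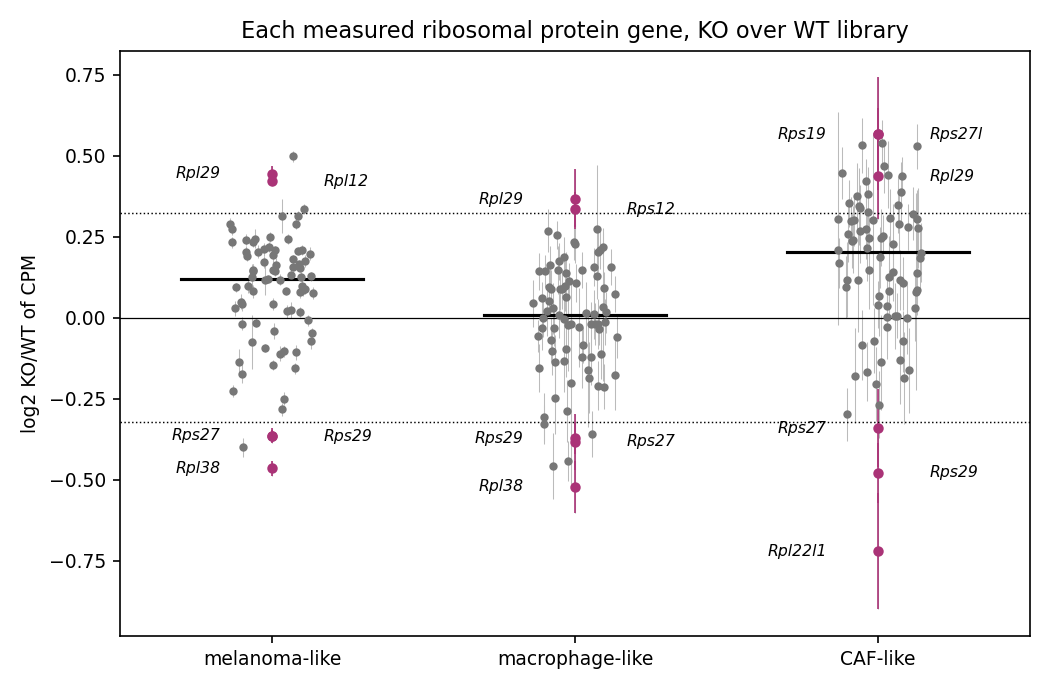
log2 KO/WT of CPM (y axis) for each ribosomal protein gene with at least 200 UMIs in a class, with exact 95% counting intervals; black bars are medians, dotted lines mark the threshold of 0.32, and the named genes are in purple. The median lies at 0.20 in CAF-like, 0.12 in melanoma-like and 0.0077 in macrophage-like cells, and Rps27 and Rps29 lie under the lower dotted line in all 3.

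Of 80 members measured in all 3 classes, 40 were above 0 and 13 below 0 in every class. The same counts over all genes were not computed. The classes of a library were sequenced together, so the classes are not independent. A single member, Rpl29, which encodes a basic protein of the large subunit, was past the threshold upwards in all 3 classes, at 0.44 in melanoma-like, 0.37 in macrophage-like and 0.44 in CAF-like cells. Rps29 and Rps27, both zinc-binding proteins of the small subunit, were lower in all 3. Rps29 was at -0.36, -0.37 and -0.48, and Rps27 at -0.36, -0.38 and -0.34, the last within the threshold at -0.30 under TMM scaling and at -0.24 in Xist-positive cells. The cause of these 3 differences was not tested, and a difference between libraries cannot be told apart from one between host genotypes. Reads of Rps27 can also be assigned to Rps27rt, a near-identical retrotransposed copy outside the naming rule, which was also lower, at 47.2 and 39.6 CPM in the kept cells of the WT and KO libraries.

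Members with short coding sequences were below 0 more often than longer members. Coding lengths, from GENCODE vM21, were found for all 84 genes and ran from 138 bases in Rpl41 to 1257 in the longest, with a median of 454.5. Of the 18 measured members under 350 bases, a bound set after the values were seen, 13 were below 0 in melanoma-like, 14 in macrophage-like and 9 in CAF-like cells. Of the longer members, 9 of 63, 26 of 63 and 7 of 62 were below 0. The median log2 KO/WT of short members was -0.14, -0.23 and 0.0055, and that of longer members 0.15, 0.034 and 0.24. Among the shortest genes, Rpl39, Rps29, Rps28, Rpl38, Rps21 and Rps27, were below 0 in all 3 classes, whereas Rpl41, the shortest of all, stood at 0.22, -0.020 and 0.25. Across members the Pearson r between the log of the coding length and the log2 ratio was 0.32 in melanoma-like, 0.34 in macrophage-like and 0.20 in CAF-like cells, with Spearman rho of 0.20, 0.26 and 0.11, over 81, 81 and 80 genes that share the libraries and are not independent replicates. The part of transcript length in these ratios was not tested.

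**Figure D4:**
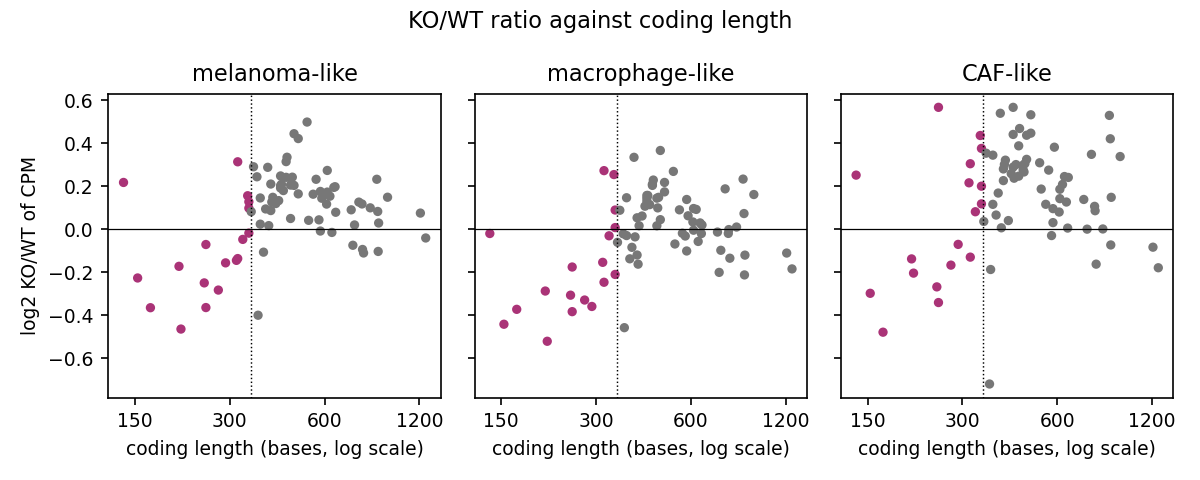
log2 KO/WT of CPM (y axis) of each measured ribosomal protein gene against its coding length in bases (x axis, log scale) in 3 classes; purple points are genes under 350 bases, left of the dotted line. Most purple points lie below 0 in melanoma-like and macrophage-like cells, while the grey points centre above 0 in melanoma-like and CAF-like cells.

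Start-site windows are printed for members at both ends of these ratios, to set their pyrimidine runs side by side. RefSeq promoters (GRCm38.p6) were found for 64 of the 84 members. Each window covers 15 bases on either side of an annotated start, and capitals mark the longest run of C and T that reaches within 5 bases of that start. The first 3 genes were lower in KO melanoma-like cells and the next 2 higher, and the last was the lowest in KO CAF-like cells.
Rpl38, chr11:114668565-114668594, + strand: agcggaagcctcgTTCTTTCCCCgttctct
Rpl35, chr2:39005117-39005146, - strand: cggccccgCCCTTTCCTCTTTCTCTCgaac
Rps27, chr3:90213634-90213663, - strand: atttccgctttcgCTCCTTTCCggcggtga
Rpl12, chr2:32961697-32961726, + strand: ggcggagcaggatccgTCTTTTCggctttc
Rps18, chr17:33955651-33955680, - strand: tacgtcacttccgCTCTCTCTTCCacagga
Rpl22l1, chr3:28805493-28805522, + strand: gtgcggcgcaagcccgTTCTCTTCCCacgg
All 6 windows held a run of at least 7 pyrimidines, of 10 bases in Rpl38, 18 in Rpl35, 9 in Rps27, 7 in Rpl12, 11 in Rps18 and 10 in Rpl22l1. The 6 are a selection, and other named genes at these ends had shorter runs. Rps12, among the highest in KO CAF-like cells, had a run of 2 bases. Rpl37a, among the lowest in KO melanoma-like cells, had 3, and Rpl39, among the lowest in KO macrophage-like cells, had 5. A relation between run and ratio was not tested. Over the 64 members with a promoter, 45.3% had a run of at least 7 at an annotated start, against 16.4% of all 27025 genes; a run within 5 bases can also end before the start and then lies outside the mRNA. In the 300 bases of the promoter, CCGGAAG, a core of ETS factors such as GABPA, was present on either strand in 40.6% of members and 9.93% of all genes. The YY1 core AAGATGGC was in 9.38% and 3.19%, the GC box GGGCGG in 62.5% and 38.2%, the TATA box TATAAA in 10.9% and 15.7%, and the MYC E-box CACGTG in 9.38% and 8.09%. The ATF4 composite element TGATGNAA was in 0 of 64 members and in 4.51% of all genes. These counts describe letters in a window and not binding.

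The 3 abundant paralogue pairs changed their balance between classes and between libraries. Rpl22l1 made up 35.7% (35.3 to 36.1) of the UMIs of the Rpl22 pair in WT melanoma-like cells and 41.4% (41.0 to 41.9) in KO. In CAF-like cells it went the opposite way, from 39.2% (36.8 to 41.6) in WT to 27.2% (25.1 to 29.5) in KO, and in endothelial-like cells from 32.9% (29.6 to 36.3) to 20.6% (15.2 to 27.0). Rpl22 itself stood at 1352 and 1415 CPM in CAF-like cells. Rps27l made up 26.73% (24.59 to 28.96) of the Rps27 pair in WT and 40.6% (38.3 to 42.9) in KO CAF-like cells, and 26.7% (23.6 to 30.1) and 45.0% (38.2 to 51.8) in endothelial-like cells. In melanoma-like cells Rps27l held 46.7% and 51.8%, and in macrophage-like cells 36.5% and 39.9%. Rpl36al, an intronless copy of Rpl36a, held 13.4% (11.4 to 15.7) and 17.3% (15.1 to 19.7) of its pair in CAF-like cells and 32.7% and 39.9% in melanoma-like cells. Rpl7l1, at 3.596% and 3.204% of the Rpl7 pair in CAF-like cells, remained minor in all classes. Of the 67 UMIs of Rpl39l, 53 lay in CAF-like cells, 29 in WT and 24 in KO, which is 1.15% and 1.02% of the Rpl39 pair; macrophage-like cells had 1 and 3 UMIs and WT melanoma-like cells 0, which allows a share of up to 0.00687%.

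**Figure D5:**
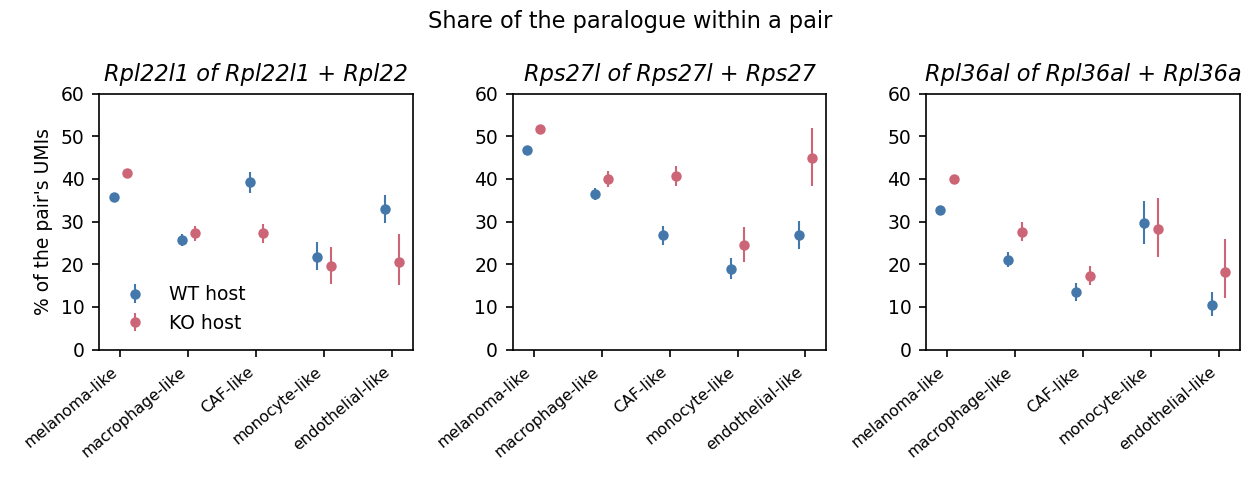
UMIs of a paralogue as a percentage of its pair (y axis) in 5 gated classes, for Rpl22l1, Rps27l and Rpl36al, with WT in blue, KO in red and exact 95% binomial intervals that cover counting error only. Rpl22l1 is lower and Rps27l higher in KO in CAF-like and endothelial-like cells.

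Beyond their sum, the ribosomal protein genes were mixed in proportions that differed between classes, and many of these differences recurred in both libraries. Each member's share of the ribosomal protein UMIs of a class was divided by its share in all other gated cells. Melanoma-like cells held most of the UMIs, 19894729 in WT and 19408207 in KO. Values of host classes are therefore largely contrasts with melanoma-like cells. Opposite values in a host class and in melanoma-like cells are largely the same contrast seen from both sides. The resulting log2 values had the same sign in WT and KO for 74 of 81 members in melanoma-like, 71 of 81 in macrophage-like, 65 of 80 in CAF-like and 70 of 76 in monocyte-like cells. Rpl36a, an X-linked large subunit gene, made up 0.250% and 0.211% of the module in WT and KO melanoma-like cells and 0.643% and 0.511% in CAF-like cells. Its log2 values were -1.08 and -1.06 in the first and 1.23 and 1.19 in the second. Rpl36a was also higher in macrophage-like cells, at 0.84 and 0.84. Rps29 made up 2.868% and 2.188% of the module in macrophage-like cells, against 1.498% and 1.068% in the other cells, log2 values of 0.94 and 1.03. Rps29 was also higher in monocyte-like cells, at 0.65 and 0.63. Rpl37a was likewise higher in macrophage-like cells, at 0.67 and 0.72, and lower in melanoma-like cells, at -0.62 and -0.65. Rpl32, Rpl31 and Rpl13a showed the reverse. Rpl32 made up 3.43% and 3.68% of the module in melanoma-like but 2.24% and 2.30% in macrophage-like cells, and Rpl31 0.657% and 0.619% against 0.378% and 0.366%. In CAF-like cells Rpl41 and Rpl17 were higher, at 0.63 and 0.60 and at 0.51 and 0.39, and Rpl32 and Rpl27 lower, at -0.71 and -0.75 and at -0.66 and -0.58. Rps27l was low in WT CAF-like cells (-1.07), less so in KO CAF-like cells (-0.54), and low in monocyte-like cells of both libraries (-1.05 and -1.04). Monocyte-like cells had more Rps9 (0.61 and 0.84) and Rps27 (0.77 and 0.63), and less Rpl31 (-0.96 and -0.90) and Rpl12 (-0.65 and -0.76).

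The other genes of the translation machinery followed the ribosomal protein genes in part. Of 19 other genes with TOP mRNAs, mostly translation factors, the summed share in CAF-like cells went from 2.49% in WT to 2.86% in KO, a log2 ratio of 0.20 (0.17 to 0.23), beside 0.20 for the ribosomal proteins. Among 18 measured, 6 were higher and 1 lower past the threshold, or 33.3% and 5.56%, where 19.5% and 21.5% of all genes in CAF-like cells were. Tpt1, which encodes the translationally controlled tumour protein, led at 5656 and 7672 CPM (0.44), with Rack1, a scaffold protein of the 40S subunit, at 0.39, Pabpc1 at 0.37 and Npm1 at 0.35. The list includes Fau, at 2428 and 3067 CPM (0.34). Hnrnpa1 was lower, at -0.39. Eef1a1, the most abundant of the list in WT CAF-like cells, was lower within the threshold, at 5757 and 5307 CPM (-0.12, -0.18 to -0.056). Of the 18, 13 lay above 0 and 5 below. In endothelial-like cells the TOP genes summed to a log2 ratio of -0.24 (-0.30 to -0.17), the direction of the ribosomal proteins there. In melanoma-like and macrophage-like cells the sum was at 0.040 and 0.025. There 0 of 19 genes passed the threshold in either direction in either class. Of all genes, between 10.5% and 13.3% passed it in each direction in these classes. Of 29 ribosome biogenesis genes, 3 of the 6 measured in CAF-like cells were higher, too few to set against the 19.5% of all genes, namely Eif6 at 0.70 (0.39 to 1.01), Nhp2 at 0.52 and Ncl at 0.47. In melanoma-like cells all 29 were measured. There 1, Wdr12, was higher, at 0.36, and 0 were lower, where 13.2% and 10.5% of all genes were. In macrophage-like cells 0 of 12 were higher and 2, Nop56 and Nop10, were lower, at -0.46 and -0.33. Of all genes there 12% were higher and 13.3% lower.

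The 78 genes of the mitochondrial ribosome, encoded in the nucleus and translated in the cytosol, went the same way as the ribosomal proteins in CAF-like cells. There the summed ratio was 0.086 (0.024 to 0.15), and 7 of 10 measured genes lay above 0. Of these 1, Mrpl17 at 0.63, passed the threshold, where 19.5% of all genes in CAF-like cells were higher. In melanoma-like cells 4 were higher and 5 lower of 77 measured, with a summed ratio of -0.020. That is 5.19% and 6.49%, below the 13.2% and 10.5% of all genes there. In macrophage-like cells 0 were higher, where 12% of all genes were. There 7 of 46 were lower, led by Mrpl18 at -0.71 and Mrpl42 at -0.54, with a summed ratio of -0.11 (-0.15 to -0.073). The 15.2% called lower lay near the 13.3% of all genes in that class. Of the snoRNA host genes 2 were in the files: Snhg12 was at 0.52 in melanoma-like and Snhg6 at -0.33 in macrophage-like cells. Among 10 regulators of ribosome synthesis and TOP translation, Eif4ebp1 and Cdkn1a, the p53-induced inhibitor of the cell cycle, were higher in KO in all 3 classes. Past the threshold, 3 of 10 measured were higher in melanoma-like, 2 of 5 in macrophage-like and 2 of 2 in CAF-like cells. Lower were 1, 1 and 0. These are too few to set against all genes, of which 13.2%, 12% and 19.5% were higher and 10.5%, 13.3% and 21.5% lower. Eif4ebp1 stood at 197 and 377 CPM in melanoma-like, 158 and 253 CPM in macrophage-like and 191 and 328 CPM in CAF-like cells. Cdkn1a stood at 141 and 342, 349 and 473, and 108 and 358 CPM. Myc was lower in KO melanoma-like cells, at 68.4 and 31.9 CPM (-1.10, -1.24 to -0.96), in which the ribosomal protein share was higher. Mtor was higher in KO melanoma-like cells, at 17.6 and 23.6 CPM (0.42, 0.22 to 0.62). Larp1, which binds TOP mRNAs, was at -0.49 (-0.87 to -0.11) in macrophage-like cells.

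Across the 10 combinations of 5 classes and 2 libraries, single members tracked the summed share to very different degrees. Over the 81 members with at least 1000 UMIs, the median Pearson r of log2 CPM with the log2 share was 0.79, beside 0.20 for genes outside the family, as a description of points that share libraries and, for the members, counts. Rpl23a (0.98), Rps3 (0.97) and Rps15a (0.97) lay closest, and 13 members exceeded 0.9. Rps29 ran against the sum, at -0.50, and Rpl37a (-0.039) and Rpl36a (0.047) were unrelated to it in these points. Of 5806 genes outside the family with at least 1000 UMIs, the 10 most alike were Vezf1 (0.90), Tmem176b (0.90), Prmt1 (0.90), Ankrd10 (0.89), Cul7 (0.88), Eef1b2 (0.88), Naf1 (0.88), Prrc2c (0.88), Usp34 (0.88) and Pam16 (0.87). Eef1b2, an elongation factor subunit with a TOP mRNA, stood at 2122 and 2359 CPM in melanoma-like, 1385 and 1634 CPM in CAF-like and 772 and 791 CPM in macrophage-like cells.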

How the data were processed

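Tumours were dissociated and loaded on a 10x Genomics Chromium controller; the labels name the 3′ V3 kit and the methods an earlier version. The deposited matrices hold UMI counts per gene and barcode, which the authors made with Cell Ranger (3.1.0 in the submitters' processing notes, which also list Seurat 3.2.1 and GRCm38). That program counts only reads assigned to 1 gene, so genes with near-identical copies lose reads. The members and lists were chosen with earlier results of these data known.

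The cell filter required 200 to 5000 detected genes and a mitochondrial share of no more than 7.5%. Cells were classed by the number and share of marker UMIs, with bounds set from marker distributions; 85 WT and 69 KO cells passing 2 lists were left out, and 594 and 615 had no class. The libraries shared 10 barcodes, 1 among kept cells. Scrublet, run in scanpy 1.11.5, called 168 and 82 doublets, which were kept in the main values and removed in an alternative. Counts were summed per class and library and given as shares or CPM. Ratios carry exact conditional binomial intervals and shares exact Clopper-Pearson intervals (scipy 1.17.1); UMIs of 1 cell are not independent, so the intervals cover counting error only. With 1 library per genotype no test was run, and genes with at least 200 UMIs over both libraries in a class were called at a log2 ratio of 0.32 or more in size. Genes were named by fixed rules: the most and least abundant members, the 5 largest ratios per direction and class, the 3 largest composition differences, paralogue pairs, stalk genes, Fau, the 10 genes most like the summed share, and at most 4 genes past that threshold per list; other named genes were chosen after their values were seen, and a few genes these rules name are not reported here. Alternatives covered filters, doublets, gates, denominators, thinning to 2000 UMIs, free RNA, TMM scaling (edgeR 4.0.16, R 4.3.3) and Xist cells. The ratio calculation was tested on simulated counts. These were independent random (Poisson) draws, as the intervals assume. They leave out the clustering of UMIs within cells and the variation between libraries, so they say nothing about either. Depth was 25239673 and 25278535 UMIs in kept cells.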

Additional observations from a re-analysis of the deposited data

Results flagged for a closer look

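The ribosomal protein share moved in opposite directions between the libraries in different classes. The log2 KO/WT ratio was 0.20 in CAF-like, 0.11 in melanoma-like and 0.018 in macrophage-like cells, but -0.16 in endothelial-like cells, of which the KO library held 26. The endothelial value was -0.065 in Xist-positive cells, 10 of them in KO, and -0.10 as the mean of per-cell shares. The difference between classes was not tested, since each genotype had 1 library. Endothelial-like cells had a median of 2800 UMIs in WT and 3584 in KO, and mitochondrial UMIs at 4.94% and 5.32%; the part of these in the result was not tested.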

How the results depend on the processing

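In CAF-like cells the log2 KO/WT ratio of the ribosomal protein share stayed above 0 under all 9 alternatives, at 0.17 with a stricter gate, 0.22 as the mean of per-cell shares and 0.19 in Xist-positive cells, and within its counting interval under the others. In melanoma-like cells it stayed above 0 under all 7, at 0.10 with a mitochondrial limit of 15%, 0.10 with a stricter gate, 0.097 without mitochondrial and globin genes and 0.11 as the mean of per-cell shares. In macrophage-like cells it fell to -0.0012 when cells were thinned to 2000 UMIs and to 0.0027 with free RNA subtracted, and rose to 0.15 in Xist-positive cells, which leave 80 KO cells; the cause was not tested. There the median over members became 0.13, with 13 members higher and 4 lower, an alternative chosen after seeing the data. The percentage of all genes called in Xist-positive cells was not computed, so these counts have no background. With TMM scaling the melanoma median was 0.086. TMM moved all ratios by -0.033, -0.023 and 0.043 in melanoma-like, macrophage-like and CAF-like cells. In CAF-like cells the median was then 0.25 over members and 0.043 over all genes. The members called higher then numbered 1 in macrophage-like and 28 in CAF-like cells. The percentage of all genes called under TMM scaling was not computed, so these counts have no background. Of the other alternatives, 52 left a result for one of the 3 main classes within its interval or within 1.5 times its count. Rps29 and Rps27 stayed between -0.49 and -0.24 and Rpl29 between 0.33 and 0.54 over all settings and classes, with Rps27 in CAF-like cells inside the threshold of 0.32 at -0.30 under TMM scaling and at -0.24 in Xist-positive cells. No paired analysis was possible because the design holds 1 library for each genotype. Counting error is small here, and the variation between tumours, animals and library preparations of a genotype could not be measured. The CAF-like and endothelial-like classes held few cells, so their gene-level intervals are wide, and 200 UMIs left 1169 genes in CAF-like cells.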
